A study of Mus musculus with 12 samples.

Results

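The regions described here are places on the mouse genome where an anti-FLAG peak was called in a single dCas9:gRNA3 library and in none of the other 5 anti-FLAG libraries, and where the peak lay at most 1000 bp from an annotated transcript start. There were 649 such regions, called members below, among 7594 merged regions of the whole series and among 5332 regions found in a single gRNA3 library. They were chosen by the presence and position of peaks, so their number and their nearness to a start describe the choice and are not findings. To find them, the peaks of all 6 libraries on assembled chromosomes were pooled, peaks sharing at least 1 bp were merged, and the distance from the nearest edge to the start of any GENCODE M21 transcript was measured on mm10, with overlap counted as 0.

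All libraries came from NIH-3T3, an established line of mouse fibroblasts, transduced with lentivirus for FLAG-tagged dCas9, driven by the hUbC promoter and linked to GFP, and either gRNA3 or a scrambled control guide, gRNAscr. GFP-positive cells were sorted and guide-bearing cells were selected with puromycin, the cells had also received an empty vector, and the labels name no clone. Peak positions do not check the cell type. Each guide had 3 anti-FLAG libraries, and each was paired with an input library of unenriched chromatin. The study asked where dCas9 binds away from its target. It describes all of its replicates as biological, though the labels do not say how these libraries were made. The p-values below measure only the spread between these libraries.

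Cas9 without nuclease activity still finds DNA by reading a short PAM next to the site and then pairing its guide with the bases nearest to the PAM, the seed. Partial seed matches are known to hold the protein at many places for a short time, and such contacts are found more readily in open chromatin. Transcript starts of active genes are the most open part of the genome, are often rich in G+C and CpG, and are known to give more reads than other DNA in sheared, unenriched chromatin.

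The sequences that bear on guide pairing are shown first, because they let the members be read against the guide. The target of gRNA3 lies in a UTR of Il33, which encodes the cytokine interleukin 33, at chr19:29945780-29945802 (mm10, + strand). All 3 gRNA3 libraries had a peak there, so the target is not a member. Below it stand the sites in the 5 members with the longest uninterrupted match to the PAM-proximal end of the guide followed by an NGG PAM within 50 bp of the summit, members on 1 chromosome left out. Each is written 5′ to 3′ on the strand of the match, with the matching seed and the PAM in capitals.
Il33 target: CGACTGTGTTAGCTCTCCACCGG
Rgs3: tctgtcctaTAGCTCTCCACAGG
Ankrd44: aggaccgacgAGCTCTCCACTGG
Pdxp: gcgcggatccAGCTCTCCACCGG
Gm15369: tgaaggggctgaCTCTCCACAGG
Gm17096: tctgctcttggctTCTCCACTGG

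The site at Rgs3, a regulator of G protein signaling, matched 11 seed bases at chr4:62652429-62652451 (+ strand), in an intron. The site at Ankrd44, an ankyrin repeat protein, matched 10 bases at chr1:54766363-54766385 (− strand), in a coding exon, and that at Pdxp, the pyridoxal phosphatase, matched 10 bases at chr15:78914772-78914794 (− strand), in an intron. The pseudogene Gm15369 had 8 matching bases at chr1:88145396-88145418 (− strand) and the antisense gene Gm17096 had 7 at chr2:166943305-166943327 (+ strand), both in introns. Over all 20 guide positions, these sites still had 8 mismatches at Rgs3, 9 at Ankrd44, 8 at Pdxp, 7 at Gm15369 and 12 at Gm17096. The Rgs3, Ankrd44 and Pdxp sites lay over the summit, and those of Gm15369 and Gm17096 began 19 and 12 bp from it.

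The members with the highest fold enrichment were not picked by their seed. Their longest seed match was 5 bases, as in most members, since only 24 of the 649 matched 6 or more. The 50 bp to each side of the summit are shown for the 3 highest of them, on the + strand and with each CpG in capitals.
Tnrc6b: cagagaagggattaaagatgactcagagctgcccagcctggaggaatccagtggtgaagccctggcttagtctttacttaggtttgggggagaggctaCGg
Zkscan17: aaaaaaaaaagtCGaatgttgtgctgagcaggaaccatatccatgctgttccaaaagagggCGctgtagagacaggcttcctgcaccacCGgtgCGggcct
Rapgef2: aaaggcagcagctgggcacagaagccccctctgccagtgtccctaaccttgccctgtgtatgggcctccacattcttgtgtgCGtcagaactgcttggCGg

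These windows lie at chr15:80797893-80797993 in an intron of Tnrc6b, at chr11:59525428-59525528 in an exon of a non-coding transcript near Zkscan17, and at chr3:79180249-79180349 in an intron of Rapgef2. They held 1, 4 and 2 CpGs.

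The members came almost wholly from 1 library. Replicate 3 of dCas9:gRNA3 gave 585 of them (90.1%), replicate 2 gave 64, and replicate 1 gave 0. Replicate 3 also had the most peaks, 6667 on assembled chromosomes, against 2041 in replicate 2 and 193 in replicate 1, while the gRNAscr libraries had 290, 1160 and 84 in replicates 1, 2 and 3. Depth recovered from the peak values was 21.6 to 28.8 M reads for the anti-FLAG libraries and 8.80 to 16.6 M for the inputs, and replicate 3 of gRNA3 had the fewest anti-FLAG and the most input reads. Without replicate 3 the same rule gave 169 regions, since regions that replicate 3 shared with another gRNA3 library then counted as single. A peak list does not say how much signal the other libraries had at a member, so the absence of a peak is not the absence of reads, and read counts at the members were not analysed here. A peak of another gRNA3 library lay within 1000 bp of 25 members (3.85%) and a peak of a gRNAscr library within 1000 bp of 18 (2.77%), and the median distance to the nearest one was 166165 bp and 332826 bp. The libraries of the guides differ in their number of peaks, and these counts were not made for single-library regions away from starts. Nothing is therefore read from the gap between the guides.

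Peaks near starts were found with both guides, in single-library and in shared regions. The positions within the same reach of a start make up 6.70% of the assembled genome without gaps. Of all peaks on assembled chromosomes, 16.6%, 12.3% and 12.3% lay within 1000 bp of a start in gRNA3 replicates 1, 2 and 3, and 14.8%, 11.8% and 15.5% did in gRNAscr replicates 1, 2 and 3. Every library stood above the genome's share and the guides overlapped. The means were 13.7% ± 2.47 for gRNA3 and 14.04% ± 1.96 for gRNAscr (SD, n = 3 libraries each), a difference of −0.312 percentage points. The members are among these peaks, 585 of the 820 at starts in gRNA3 replicate 3, so no test of this difference is given.

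Among regions found in 1 library only, 64 of 543 (11.8%, exact 95% interval 9.20 to 14.8) lay at starts in gRNA3 replicate 2 and 585 of 4787 (12.2%, 11.3 to 13.2) in replicate 3. The control gave 21 of 268 (7.84%, 4.92 to 11.7) in gRNAscr replicate 2 and 1 of 21 (4.76%, 0.120 to 23.8) in gRNAscr replicate 1. The remaining libraries had too few such regions to place a share, with 0 of 2 in gRNA3 replicate 1 and 1 of 4 in gRNAscr replicate 3. Over all 6 libraries the mean shares were 8.002% ± 6.93 and 12.5% ± 10.9 (SD, n = 3 each), a difference of −4.53 percentage points. These means give libraries with 2 and 4 regions the same weight as the others, and the libraries with at least 21 regions stood in the opposite order, so no direction was read from them. Since the members were chosen by these same values, no test is given. These intervals and all others below cover counting error only.

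**Figure D1:**
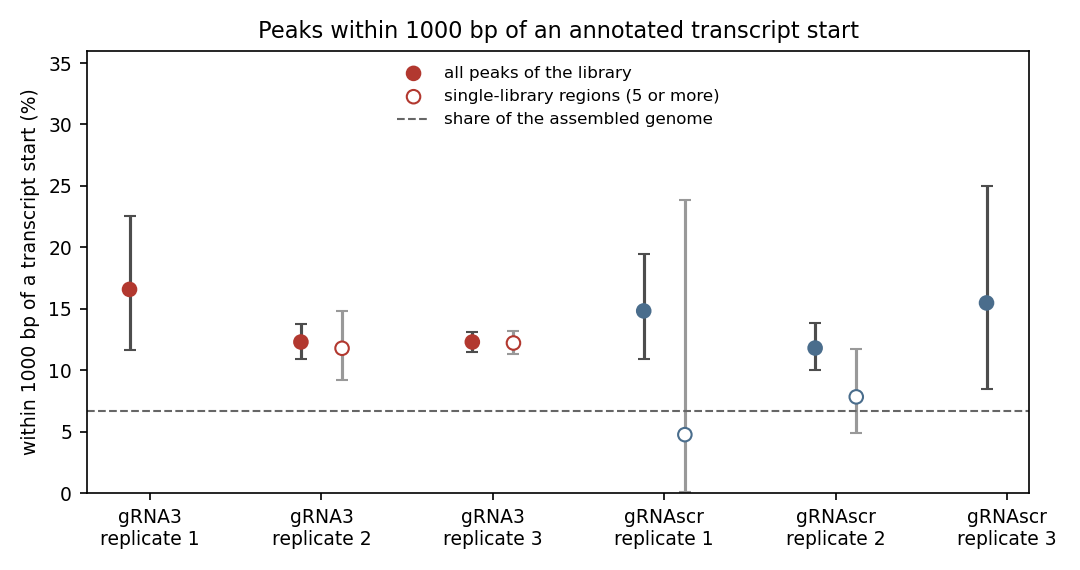
Share of peaks within 1000 bp of a transcript start (%, y axis) in each of the 6 anti-FLAG libraries (x axis), for all peaks (filled points) and for single-library regions where a library had 5 or more (open points), with exact 95% binomial intervals. All filled points lie between 11.8% and 16.6%, above the dashed line at 6.70%, the share of the assembled genome, and the 2 guides overlap.

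The distances of the members describe the rule that chose them and were not tested. Of the 649, 181 (27.9%) overlapped a start, 138 lay 1 to 250 bp from it, 100 lay 251 to 500 bp and 230 lay 501 to 1000 bp from it, with a median edge distance of 265 bp. The summit was within 200 bp of the start of the named gene in 242 members (37.3%). Set against the share of the genome at each distance, regions of single gRNA3 libraries were 3.74 times as frequent over a start, 1.64 times at 1 to 250 bp, 1.28 times at 251 to 500 bp and 1.57 times at 501 to 1000 bp. Farther out the ratio was 1.16 to 1.28 up to 10 kb, 0.999 at 10 to 50 kb and 0.388 beyond. The summit was upstream of the start in 354 members and at or downstream of it in 295. The limit itself ran through a continuous range. Just inside it, the member at Gm29233 lay 1000 bp from the start with a fold enrichment of 4.83, and that at Runx1t1, which encodes a transcriptional corepressor, lay 984 bp away with 7.48. Just outside, the region at Ctbp1, another corepressor gene, lay 1003 bp away with a fold enrichment of 3.54, and that at Fam178b lay 1009 bp away with 5.27.

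**Figure D2:**
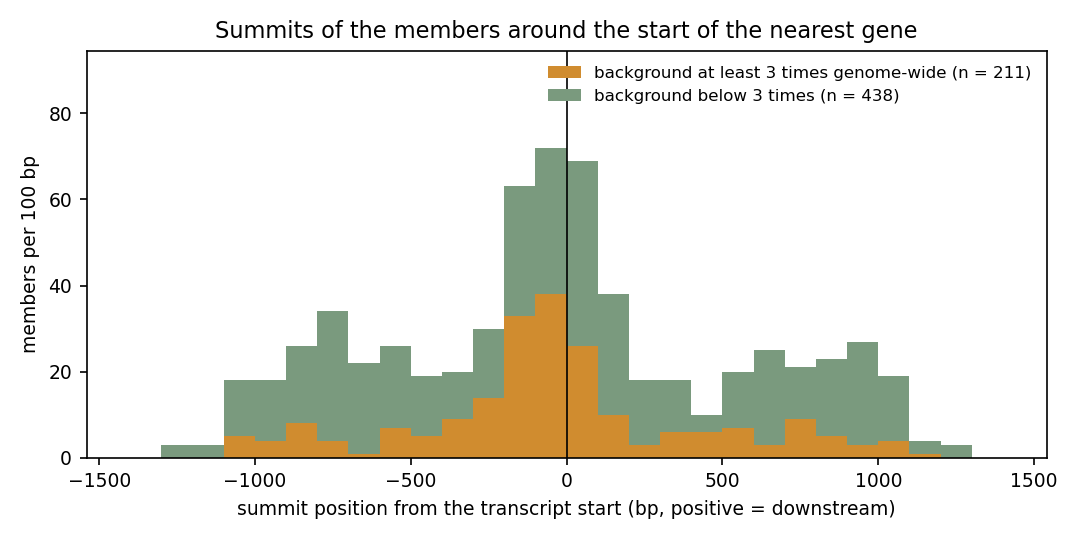
Number of members per 100 bp (y axis) by the position of the summit from the nearest start of the gene that names the member (x axis, bp, positive downstream), split by local background. Of the 649 summits 242 lie within 200 bp of the start, and the 211 members with a background of at least 3 times the genome-wide value crowd closer to it than the other 438.

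Pileup and local background at the summit tell the members apart. The fold enrichment and p-value of a peak together fix its pileup, the number of anti-FLAG reads over the summit, and its local background, the number of reads that the peak caller expected there. The background is taken here as that of the paired input, since the pileups came out whole on that assumption, but the peak-calling command that the study gives names no control, and the input is named as control only for its later comparison of the guides. That background is the highest of several windows and never falls below a genome-wide value, which was 1.82 reads in replicate 3 and 1.70 in replicate 2. Fold enrichment is the pileup, scaled to the input, over the background, with 1 added to each, so it falls as the background rises unless the pileup keeps up. A peak is listed only if its pileup passed the caller's threshold against that background, so a higher background lets only larger pileups in.

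In replicate 3 the 585 members had a median pileup of 27 reads (quartiles 21 to 40), a median background of 3.33 (2 to 8) and a median fold enrichment of 4.45 (3.42 to 5.56). The 4202 regions of that library away from starts had a pileup of 22 (19 to 28), a background of 2.18 (1.82 to 3.67) and a fold enrichment of 5.02 (4.24 to 5.99). The members' medians were thus higher in reads and background, and lower in their ratio, than those of single-library regions elsewhere in the library. The 238 peaks of replicate 3 at starts in regions shared by 2 or more libraries had a median of 29 reads over 2.65. In replicate 2 the 64 members had a pileup of 29.5, a background of 2.24 and a fold enrichment of 4.72, against 26, 1.84 and 5.06 in the 479 regions away from starts. Replicate 2 of gRNAscr, the only other library with at least 5 single-library regions on each side, had a pileup of 32 at starts and 34 away, a background of 1.306 and 1.195, and a fold enrichment of 5.49 and 5.76.

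Over these 3 libraries, the background at starts was 1.52, 1.22 and 1.09 times that away from them in gRNA3 replicates 3 and 2 and gRNAscr replicate 2, and the fold enrichment was 0.887, 0.933 and 0.953 times. The mean log2 ratio was 0.34 for the background, −0.11 for the fold enrichment and 0.13 for the pileup, the last with opposite signs for the guides. With 3 libraries a two-sided exact permutation test by sign flips cannot go below p = 0.25. The exact test gave p = 0.25 for the background and for the fold enrichment and p = 0.5 for the pileup, with Benjamini-Hochberg values of 0.5, 0.5 and 0.75 over the 6 measures compared, so none of the 3 could pass. The width of the peaks differed little, with medians of 246 bp at starts and 251 bp away in replicate 3 and 229 and 233 bp in replicate 2 (mean log2 ratio over the 3 libraries −0.01, exact permutation p = 1.0).

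All peaks, not only those of single libraries, allowed the comparison in all 6 libraries, where the smallest p is 0.031. The background at starts was 1.46, 1.38 and 1.41 times that away in gRNA3 replicates 1, 2 and 3 and 1.27, 1.23 and 1.32 times in gRNAscr replicates 1, 2 and 3, thus higher in 6 of 6 libraries (mean log2 ratio 0.43, exact sign-flip permutation p = 0.031, adjusted 0.094). The pileup was also higher in 6 of 6 (mean log2 ratio 0.21, exact permutation p = 0.031, adjusted 0.094), by 1.03 to 1.22 times. The fold enrichment was lower at starts in 5 of 6 libraries, gRNAscr replicate 3 being the exception (mean log2 ratio −0.06, exact permutation p = 0.19, adjusted 0.28). None of these passed after adjustment over the 6 measures, and both guides moved the same way for background and pileup. Since only called peaks were compared, the directions of pileup and fold enrichment can follow from the calling threshold. They are not results separate from the background.

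**Figure D3:**
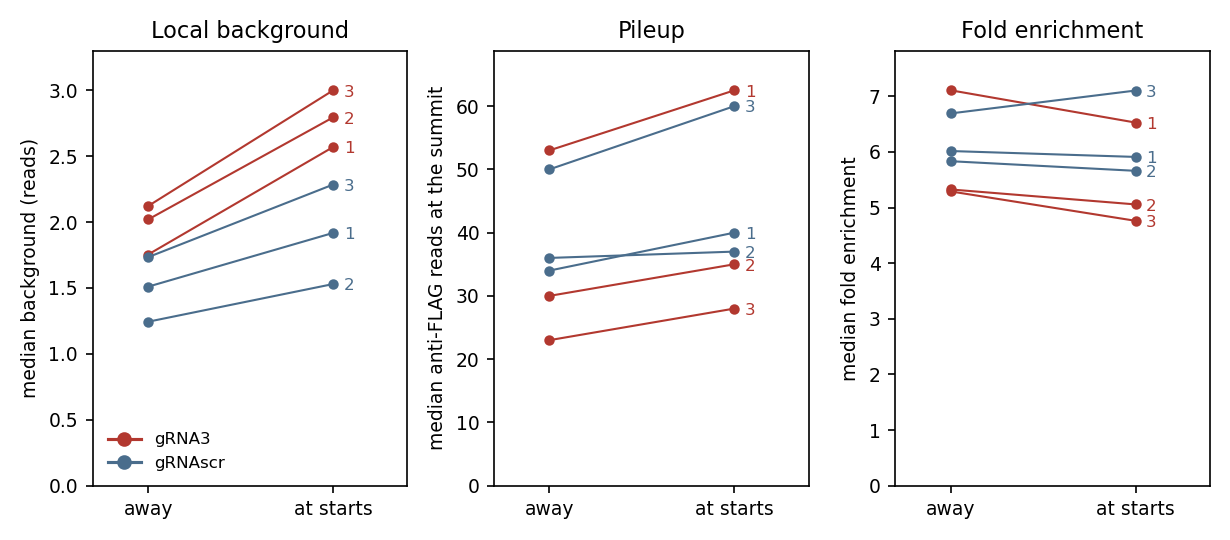
Medians of local background (reads), pileup (anti-FLAG reads at the summit) and fold enrichment (y axes) for all peaks away from starts and at starts (x axis), 1 line per library, gRNA3 in red and gRNAscr in blue, with replicate numbers at the right. Background and pileup rise toward starts in all 6 libraries, and fold enrichment falls in 5 of them.

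The members formed a continuous range between 2 extremes. At one end were regions with few background reads and a high ratio. Tnrc6b, whose product links Argonaute to microRNA silencing, had the highest fold enrichment of all members, 13.97, with 53 reads over a background of 2 reads, and its peak at chr15:80797740-80798144 lay 498 bp from a start and 254 bp from a peak of another gRNA3 library. A further member of Tnrc6b, 581 bp from a start, had a fold enrichment of 5.56 (19 reads over 1.82). Zkscan17, a zinc finger gene, followed with 11.4 (58 reads over 3), and Rapgef2, which encodes an exchange factor for Rap GTPases, with 10.7 (38 reads over 1.84). These 3 ranked 29, 70 and 103 among all peaks of replicate 3, so stronger peaks of that library lay elsewhere.

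Il1rl1, which encodes the receptor for interleukin 33, was a member with a fold enrichment of 8.58. Its peak at chr1:40436417-40436906 overlapped a start, with the summit 25 bp downstream of it, in a UTR. It had 30 anti-FLAG reads over a background of 1.82, which is the genome-wide value of replicate 3, and its summit window held 1 CpG and a seed match of 3 bases. The nearest peak of another gRNA3 library was 160944 bp away, and the nearest gRNAscr peak was 2420 bp away. Ccdc77, a coiled-coil gene, had 54 reads over 4 and a fold enrichment of 8.53, with its summit 14 bp from the start.

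The other members among the 10 highest of replicate 3 lay near Mndal, an interferon-inducible gene, at 9.13, near the non-coding genes Ptgs2os2 at 8.96 and Zfp85os at 8.85, and near the pseudogenes Gm11774 at 9.21 and Gm10557 at 8.58. Of these 10, 3 overlapped a start. In replicate 2 the 5 highest were the regions at Adh4, an alcohol dehydrogenase gene, at 8.27 (39 reads over 1.84), at the long non-coding RNA gene Wincr1 at 7.40, at Gm35940 at 6.97, at 4930447K03Rik at 6.88 and at Speer4d at 6.76. In these 15 regions together the background was 1.70 to 4 reads, the G+C content within 50 bp of the summit was 51.5% to 59.4%, and 8 of the nearest genes were protein-coding.

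At the other end were regions with many reads in both the background and the immunoprecipitate. The 5 with the highest background, named after their values were seen, were Trip10, Add3, Mapk14, Tram2 and Vegfa, all protein-coding, and 4 of them overlapped a start. At Trip10, a gene of membrane curvature and the actin cytoskeleton, 112 anti-FLAG reads stood over a background of 45, which gave a fold enrichment of 1.90, and the summit was 2 bp from the start. At Add3, an adducin gene of the membrane skeleton, 140 reads stood over 42, the highest pileup of any member, for a fold enrichment of 2.54. Mapk14, the p38 alpha kinase gene, had 118 reads over 41 (2.19), Tram2 had 107 over 40 (2.04), and Vegfa, the angiogenic growth factor gene, had 88 over 37 (1.81). Their summit windows were 65.3% to 79.2% G+C and held 7 to 13 CpGs. Each had more anti-FLAG reads than any of the 10 members with the highest fold enrichment in replicate 3, which had 30 to 58. These sets were picked by background and by fold enrichment, and only a large pileup is called over a high background. The gap in reads therefore follows from the choice and is not a finding.

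**Figure D4:**
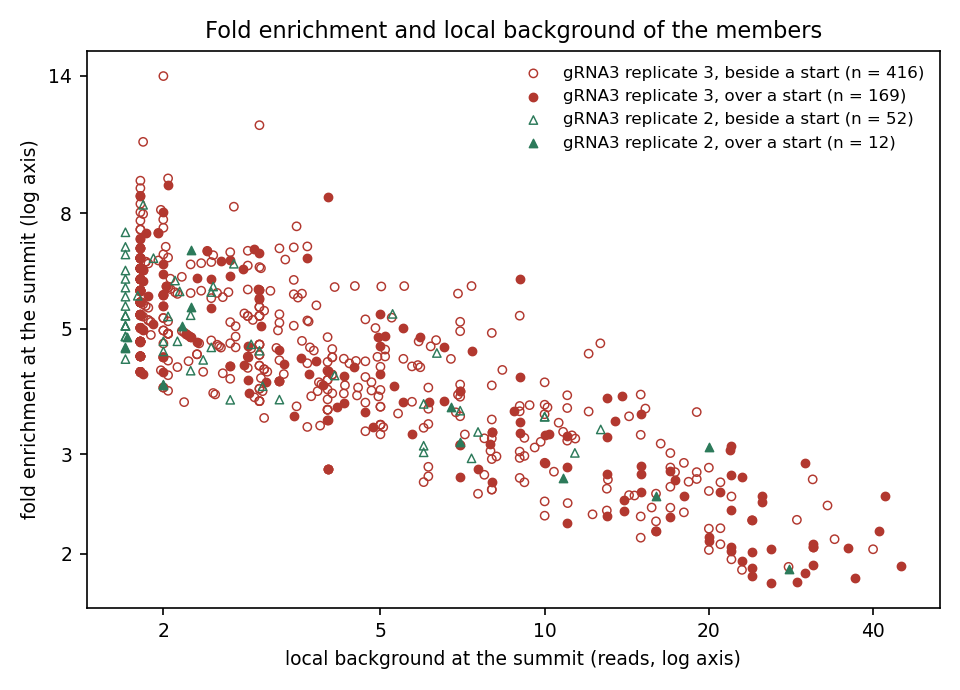
Fold enrichment (y axis, log) against local background in reads (x axis, log) at the summits of the 649 members, with circles for gRNA3 replicate 3, triangles for replicate 2 and filled marks for regions that overlap a start. Fold enrichment is a ratio with the background below the line, and the points run from 13.97 at a background of 2 to 1.90 at a background of 45.

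A background of at least 3 times the genome-wide value was found in 211 members (32.5%, exact 95% interval 28.9 to 36.3) and in 548 of 4683 single-library gRNA3 regions away from starts (11.7%, 10.8 to 12.7). The share was 32.99% at starts and 12.2% away in replicate 3 and 28.1% and 7.31% in replicate 2, so it held in both libraries that gave members. In gRNAscr replicate 2 it was 1 of 21 regions at starts and 11 of 247 away (4.76% and 4.45%), where the few regions do not allow a comparison. The share was lower farther from starts, at 45.3% over a start, 39.1%, 30.0% and 19.6% in the 3 zones up to 1000 bp, then 20.7% at 1 to 2 kb, 16.9% at 2 to 5 kb, 10.6% at 5 to 10 kb, 10.3% at 10 to 50 kb and 5.57% beyond. Seen from the other side, 27.8% of the 759 single-library gRNA3 regions with such a background lay at starts (24.6 to 31.1), as did 9.58% of the 4573 with less (8.74 to 10.5) and 7.17% of the 1702 at the genome-wide value (5.99 to 8.50), against 6.70% of the genome. Such a background was not particular to the members. In regions shared by 2 or more libraries, 42.9%, 23.3% and 19.75% of peaks at starts had it in gRNA3 replicates 1, 2 and 3. In gRNAscr replicates 1, 2 and 3 these shares were 16.7%, 6.56% and 33.3%, from 42, 122 and 12 peaks. Away from starts, peaks of shared regions had it in 34.6%, 12.7% and 9.81% in gRNA3 replicates 1, 2 and 3.

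The 211 high-background members had a median pileup of 50 reads, a median fold enrichment of 2.97, a G+C content of 58.4% (quartiles 52.5% to 65.8%) and 4 CpGs within 50 bp of the summit, and 82 of them overlapped a start. The other 438 had a pileup of 23, a fold enrichment of 5.06, 51.5% G+C (49.5% to 54.5%) and 1 CpG, and 99 of them overlapped a start. How much the local background contributed to the calls was not tested. Starts on both strands, as at divergent promoters, lay within 1000 bp of 45 members, of which 29 had the high background (64.4%, 48.8 to 78.1), against 182 of the 604 with starts on 1 strand (30.1%, 26.5 to 34.0).

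**Figure D5:**
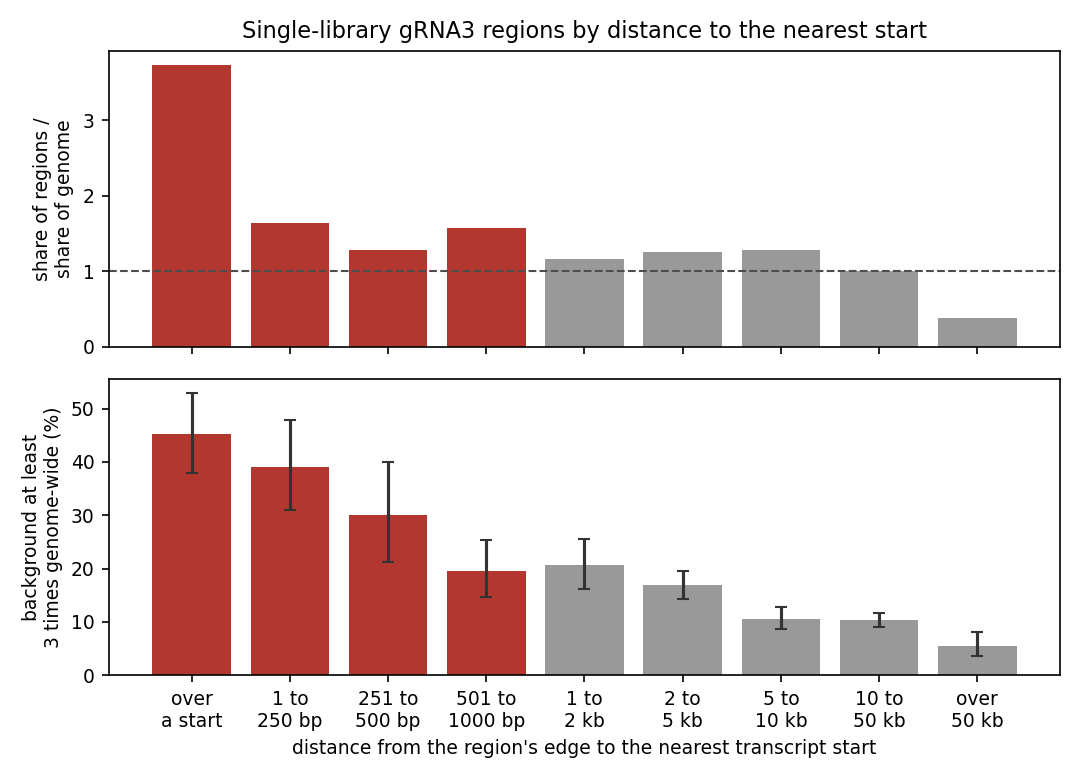
Single-library gRNA3 regions by the distance of their edge to the nearest start (x axis), with the share of regions over the share of the genome (upper y axis) and the percentage with a background of at least 3 times the genome-wide value (lower y axis, exact 95% intervals), members in red and regions beyond 1000 bp in gray. The ratio is 3.74 over a start and 0.388 beyond 50 kb, and the lower panel falls from 45.3% to 5.57%.

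Median G+C content at the summits differed by about 1 base of the window, but the upper tail differed more. At least 60% G+C was found in the windows of 90 of the 649 members and of 96 of the 4683 single-library gRNA3 regions away from starts. Pooled over the gRNA3 libraries, the upper quartile was 56.4% in members and 54.5% away, and the median number of CpGs was 2 and 1. The median G+C content within 50 bp of the summit was 53.5% at starts and 52.5% away in gRNA3 replicate 3, 52.5% and 51.5% in replicate 2, and 50.5% and 49.5% in gRNAscr replicate 2, a difference of 0.990 percentage points in each (exact sign-flip permutation p = 0.25, the smallest possible, adjusted 0.5). Windows of the same size at all 132629 annotated start positions had a median of 53.5% with much wider quartiles, 45.5% to 63.4%, than those of the members of replicate 3, 50.5% to 56.4%. No CpG was found in the summit window of 133 members, and 5 or more in 114, of which 89 had the high background.

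A seed match, meaning that 6 or more bases at the PAM end of the guide were present next to an NGG, lay within 50 bp of the summit in 24 of the 649 members (3.70%, exact 95% interval 2.38 to 5.45). In regions of single gRNA3 libraries away from starts it was 142 of 4683 (3.03%, 2.56 to 3.56). In the control it was 10 of 1534 gRNAscr peaks (0.652%, 0.313 to 1.20) and 1 of the 199 at starts, and in windows at all annotated starts it was 780 of 132629 (0.588%). The intervals of the members and of the regions elsewhere overlapped, and those of the members and of the control peaks did not. The latter gap rests on gRNA3 replicate 3, since the 1 of 64 members in replicate 2 (1.56%, 0.0396 to 8.40) has an interval that includes the control's share, and regions of a library are not replicates of a guide. Peaks at starts in regions shared by 2 or more libraries, counted in the gRNA3 libraries, held it in 49 of 466 (10.5%, 7.88 to 13.7). These are peaks from at most 254 regions, so a site can count in each library, and the interval is too narrow for distinct regions. The share was 31.4%, 9.33% and 8.40% in gRNA3 replicates 1, 2 and 3. The control peaks were likewise counted in each library and, unlike the members, include peaks of shared regions. All 10 control peaks with a seed came from gRNAscr replicate 2 and lay in regions shared by 2 or more libraries. Within libraries, the share was 3.93% at starts and 3.07% away in gRNA3 replicate 3, 1.56% and 2.51% in replicate 2, and 0 of 21 and 0 of 247 in gRNAscr replicate 2, where a count of 0 of 21 still allows up to 16.1%. The mean difference was −0.03 percentage points (exact sign-flip permutation p = 1.0, adjusted 1.0), with opposite signs in the 2 gRNA3 libraries.

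The seed was more frequent where the background was high. Among members it was found in 14 of the 211 with a background of at least 3 times the genome-wide value (6.64%, 3.68 to 10.9) and in 10 of the other 438 (2.28%, 1.1 to 4.16). Away from starts the same split gave 8.58% (6.37 to 11.2) and 2.297% (1.86 to 2.80). At one level of background, members and regions away from starts differed by less than the counting error. The median number of NGG PAMs in the window was 19 in high-background members and 15 in the others, and 16 and 15 away from starts. In windows of at least 60% G+C the seed was present in 7 of 90 members (7.78%, 3.18 to 15.4), in 9 of 96 regions away from starts (9.38%, 4.38 to 17.1) and in 0.783% of windows at all annotated starts, and the intervals of the first and second of these overlapped. The split by background was made after the values were seen and was not tested.

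Longer matches were few, with 7 members at 7 or more bases (1.08%, 0.435 to 2.21), 4 at 8 or more and 3 at 10 or more, while none of the 1534 gRNAscr peaks had 8. Rgs3, with 11 bases, had a fold enrichment of 4.56 (48 reads over 7.34) at a peak that overlapped a start, and ranked 4562 of the peaks of replicate 3. Pdxp, with 10, had 4.53 (56 reads over 6.34) in replicate 2, and Ankrd44, with 10, had 6.11 (21 reads over 1.82). Gm15369 had 5.84 (20 reads over 1.82) and Gm17096 had 5.56 (19 reads over 1.82). No member with a seed of 6 or more bases was among the 10 highest by fold enrichment in its library's members, and the highest of them, Acta2, reached 6.39. Only 24 of the 649 members (3.70%) had such a seed, so its absence from so few members shows nothing.

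Short sequence motifs known at promoters were counted in the same windows on both strands. The GC box (GGGCGG) was present in 65 members (10.0%, 7.82 to 12.6), in 2.26% of regions away from starts and in 15.7% of windows at all starts. Among members it was present in 52 of the 211 with high background (24.6%, 18.99 to 31.0) and 13 of the other 438 (2.97%, 1.59 to 5.02). The AP-1 element (TGANTCA), bound by Fos and Jun factors, was present in 53 members (8.17%, 6.18 to 10.6), in 504 regions away from starts (10.8%, 9.89 to 11.7) and in 2.17% of windows at all starts. The 2 motifs divided differently, since AP-1 was at 6.64% in the high-background members and 8.90% in the others. One match to it is visible in the Tnrc6b window printed above. The CCAAT box (CCAAT) was present in 12.6% of members and 12.3% of all start windows, the ETS core (CCGGAAG) in 1.54% and 4.12%, the TATA box (TATAAA) in 1.85% and 4.21%, the E-box (CACGTG) in 0.770% and 2.22%, the NRF1 element (TGCGCA) in 0.924% and 2.80%, the YY1 core (ATGGCGG) in 0.616% and 2.80%, and the cAMP response element (TGACGTCA) in 0.308% and 0.652%. The members' windows are centered on summits, a median of 394 bp from a start, and the start windows lie at the starts. Their shares thus compare unlike positions. GC boxes and the other motifs can overlap in a window, and a match is not a bound site.

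The nearest start belonged to a protein-coding gene in 424 members (65.3%), to a long intergenic non-coding RNA gene in 81 (12.5%), to an antisense gene in 39 (6.01%) and to a processed pseudogene in 30 (4.62%). Of all annotated genes 39.6%, 10.6%, 5.34% and 17.9% are of these types, and genes differ in their number of starts, so the shares were not tested against each other. Of the members at protein-coding starts 131 (30.9%) overlapped the start and 38.0% (33.3 to 42.8) had the high background, against 50 of 225 (22.2%) and 22.2% (17.0 to 28.2) of the others, with a median fold enrichment of 4.28 against 4.77. The summit lay in an intron in 292 members, between genes in 163, in an exon of a non-coding transcript in 96, in a UTR in 69 and in a coding exon in 29.

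Of 21938 protein-coding genes, 443 had a start within 1000 bp of a member (2.02%), and of all 55413 annotated genes 697 did (1.26%). The first of these shares is the background for lists of genes that fibroblasts are known to use strongly and of genes that they are not. Over all lists, 13 of 515 genes had a member (2.52%, 1.35 to 4.28), which is near the share of all protein-coding genes. No gene had a member in the lists of translation factors (0 of 36), splicing factors (0 of 40), proteasome subunits (0 of 31), the actin and tubulin cytoskeleton (0 of 26), the cell cycle (0 of 35) and DNA methylation (0 of 20), nor in those of olfactory receptors (0 of 20), hepatocyte genes (0 of 26) and neuronal genes (0 of 26). With lists of this size a count of 0 still allows 8.81% to 16.8%.

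Of 78 ribosomal protein genes only Rps12 had a member, with 30 reads over a background of 7.75 and a fold enrichment of 2.76. Of 44 genes of RNA polymerase II and its general factors, Polr2a, which encodes the largest subunit, had 58 reads over 6.94 (5.77), and Ccnt1, a cyclin of the elongation factor P-TEFb, had 59 over 20 (2.22). Among 23 chaperone genes Hsp90aa1 had 49 reads over 5.53 (5.95). Among 29 immediate early and serum response genes, the antiproliferative genes Btg1 and Btg2 had members with fold enrichments of 5.23 and 1.89, and the latter overlapped its start with 60 reads over 24. The 25 genes of the interleukin 33 pathway and inflammatory signaling gave Il1rl1 alone, and 26 leukocyte genes gave Lyz2, the lysozyme of myeloid cells, with 23 reads over 1.70 (5.27) in replicate 2.

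The list of fibroblast matrix and mesenchymal genes had the most members, 5 of 30 (16.7%, 5.64 to 34.7). Acta2, the smooth muscle actin gene, had 32 reads over 3.02 (6.39) and a 6-base seed, with the summit 97 bp upstream of the start. Col5a2, a collagen gene, had 29 reads over 3 (5.84), and Dcn, the matrix proteoglycan decorin, had 25 over 1.70 (5.70) in replicate 2, with the edge of its peak 2 bp from the start. Col1a2, a chain of type I collagen, had 21 reads over 3 (4.30) at 804 bp. The 4 genes named are those with the highest fold enrichment. The 5 regions ranged in background from 1.70 to 4.47 reads. This list was the highest of those tried, and all were chosen with earlier results of these data known. Its interval is therefore not independent support, and the list was not tested against others.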

How the data were processed

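Anti-FLAG chromatin immunoprecipitation libraries of NIH-3T3 cells were used as deposited peak lists. Per the labels the authors used bcl2fastq 2.20, Trim Galore 0.6.4, Bowtie2 2.3.4.1, mm10 and MACS2 2.2.7.1, which called peaks in each library without pooling. For each peak the authors' caller gave the fold enrichment (a ratio to the local background), the −log10 p-value and −log10 q-value at the summit, and a score made from the latter. The score was not analysed further.

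Members were found as stated in the report. The members, gene lists and motifs were chosen with earlier results of these data known. Pileup and background were solved from fold enrichment and Poisson p-value, assuming that each library was scaled to its input as the control, which the stated command does not name. At least 99.99% of pileups came out whole, and the method was tested on simulated data. Named are the highest members by fold enrichment (10 in replicate 3, 5 in replicate 2), the 5 longest seeds, the 2 regions on each side of the distance limit and up to 4 genes per list. Shares carry exact 95% binomial intervals. Alternatives covered peak thresholds, distance, starts, merging, libraries, replicate block, seed and window. Python 3.11.15 was used with numpy 2.4.6, pandas 2.3.3, scipy 1.17.1, pysam 0.24.0, matplotlib 3.10.9 and samtools 1.23.1. Peaks on unplaced sequences (3 to 18 per library) were left out.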

Additional observations from a re-analysis of the deposited data

How the results depend on the processing

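Of 109 comparisons of a result with an alternative, 82 kept the direction and the side of the threshold, or a count within 1.5 times. In most of them the smallest possible p was 0.1 or more, so the side of the threshold could not change. A difference of 0 counted as kept. The member count of 649 became 399 at a −log10 q-value of at least 5, 431 at a fold enrichment of at least 4, 419 within 500 bp and 337 with protein-coding transcripts only. It ranged from 169 to 695 as each library was left out, 169 being the value without dCas9:gRNA3 replicate 3. At a −log10 q-value of at least 3 there were 578 regions, of which 547 were members as reported. Peaks with a background below 3 times genome-wide, added after the data were seen, gave 449.

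The differences between the guides had no stable sign. For all peaks it was 0.503 percentage points within 500 bp, 2.70 within 2000 bp, 1.42 with protein-coding transcripts and −1.74 to 0.407 as each library was left out. For single-library regions it was 9.26 and 9.23 at −log10 q-values of at least 3 and 5, 13.5 at a fold enrichment of at least 4, 2.66 with protein-coding transcripts and −7.83 to 6.82 as each library was left out, the highest without gRNA3 replicate 3. With the replicate block the same differences were −0.312 and −4.53, neither of them tested, as in the report. Same-numbered libraries did not deviate together in every pair (correlations 0.155, 0.107 and −0.109), but 18 regions are too few to show whether they were made together. The labels do not say, and the numbers were not taken as pairs.

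Within libraries, the log2 ratio of peak width was 0.062 over all peaks and −0.011 to 0.037 as each library was left out. The difference in seed share was 0.846 points over all peaks, 0.474 within 2000 bp, 0.153 for 8 bases, 0.873 within 100 bp and −3.07 to 0.513 as each library was left out. Background, fold enrichment, pileup and G+C content kept their direction in all alternatives tried, except that the G+C difference was 0 without gRNAscr replicate 2. No within-library measure passed its threshold in any alternative, and where 2 or 3 libraries remained none could.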
